A study of Mus musculus with 4 samples.

Results

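The genes described here are 10 genes of the disease-associated microglia programme that runs through Trem2 and Apoe: Trem2, Tyrobp, Apoe, Lpl, Cst7, Spp1, Axl, Clec7a, Itgax and Cd9. They were taken by gene symbol from the count matrices of 4 single-cell RNA sequencing (scRNA-seq) libraries, and 9 of the 10 had a row among 31053 genes. Clec7a was not analysed here. Each library came from the whole brain of 1 male C57BL/6J mouse at postnatal day 90, dissociated with enzymes at 37 °C. In the group without inhibitors (labels "No inhibitors", n = 2 animals) the buffers held no inhibitor, and in the other group (labels "Inhibitors", n = 2 animals) actinomycin D and triptolide, which block transcription, were present from perfusion through digestion, with anisomycin, which blocks translation, in dissection and digestion. All 4 animals were otherwise untreated wild-type mice, and the labels place them in 1 batch. The question was whether dissociation without inhibitors raises these genes, in which cell classes they are found, and how they behave beside the early activation genes that dissociation is known to raise.

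Trem2 is a lipid-sensing receptor on microglia, the resident macrophages of the brain, and Tyrobp is the adaptor through which it signals to the kinase Syk. In models of amyloid deposition, demyelination and ageing, microglia lower their homeostatic genes and raise a programme in which Apoe, a lipid carrier, and Tyrobp come first and genes such as Lpl, Cst7, Spp1, Axl, Itgax and Cd9 follow, the later ones in a Trem2-dependent way. Immediate early genes such as Fos and Junb are switched on within minutes of a stimulus and need no new protein for it.

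Of 12487 barcodes with 24842583 UMIs (unique molecular identifiers, which tag single RNA molecules), 9861 cells were kept, between 2089 and 2810 per library, with median UMIs per cell between 1440.0 and 1686. Cells were clustered without the members or the activation genes and classes were named by fixed markers, hence "microglia-like". The microglia-like class had 728 and 877 cells without inhibitors and 703 and 954 with inhibitors, and 9 named classes had at least 20 cells in every animal and were tested. The microglia-like class was named by 12 microglial markers, so finding them in it is no check of the name. Of these, 12 of 12 were detected, and together they made up between 249.9 and 288 of every 10000 UMIs. The 10 macrophage/monocyte markers made up at most 0.125 of every 10000 UMIs in this class, and those of dendritic cells at most 0.742. Levels are CPM, the UMIs of a gene per 1000000 UMIs summed per animal and class, and fold changes are without over with inhibitors.

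Promoter sequences are shown for Trem2, Cst7 and Apoe, because the first 2 hold the motif bound by AP-1, the dimer that Fos and Junb form, and Apoe is the most abundant member. They come from RefSeq on GRCm38.p6 and cover 250 bases before to 50 after a gene start. Of 32851 such windows, 7.81% hold TGANTCA (AP-1) on either strand and 28.3% hold GAGGAA (the core of the motif of PU.1, a factor of myeloid cells), and these 2 motifs are in capitals.
Trem2 (chr17:48346151-48346450, + strand): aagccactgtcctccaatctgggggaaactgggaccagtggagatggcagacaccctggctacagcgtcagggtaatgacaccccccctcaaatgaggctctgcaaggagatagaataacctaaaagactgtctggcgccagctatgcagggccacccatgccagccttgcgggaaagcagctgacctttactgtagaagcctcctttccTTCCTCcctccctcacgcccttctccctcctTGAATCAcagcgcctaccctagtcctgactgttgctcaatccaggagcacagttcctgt
Cst7 (chr2:150570165-150570464, + strand): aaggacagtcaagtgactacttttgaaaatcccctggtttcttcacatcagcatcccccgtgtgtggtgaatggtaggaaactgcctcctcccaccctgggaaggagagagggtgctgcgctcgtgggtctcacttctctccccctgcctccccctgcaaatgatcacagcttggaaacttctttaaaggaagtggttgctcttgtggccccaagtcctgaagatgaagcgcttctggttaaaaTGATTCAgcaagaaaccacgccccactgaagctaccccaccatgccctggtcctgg
Apoe (chr7:19699139-19699438, - strand): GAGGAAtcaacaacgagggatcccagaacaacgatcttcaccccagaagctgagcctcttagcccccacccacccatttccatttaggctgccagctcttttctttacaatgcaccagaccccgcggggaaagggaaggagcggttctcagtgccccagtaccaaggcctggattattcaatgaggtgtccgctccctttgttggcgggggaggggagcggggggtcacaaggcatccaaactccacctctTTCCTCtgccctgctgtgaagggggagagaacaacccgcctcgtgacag
Windows were found for 8 of the 10 members. TGANTCA was in those of Trem2, Cst7 and Itgax, and GAGGAA in those of Trem2, Apoe, Axl, Spp1 and Clec7a. Of the 17 windows of 15 activation genes, 0 held TGANTCA and 4 held GAGGAA. A match is a run of letters and was not tested as a binding site.

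In microglia-like cells none of the members was called between the groups. The receptor, its adaptor, Apoe and Cd9 were each above 500 CPM in all 4 animals, while Lpl, Cst7, Spp1, Axl and Itgax were near the limit of detection in both groups. By edgeR, 0 of the 8 members tested passed the thresholds (log2 fold change beyond 0.58 either way and adjusted p under 0.05), against a background of 0.433% of 8770 genes called (37 higher and 1 lower without inhibitors). At an unadjusted p under 0.05 there was 1 member, Cd9, and DESeq2 also called 0, with 2 members below that unadjusted p. The median log2 fold change of the 8 members was 0.11, beside 2e-04 over all genes tested.

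Trem2 (ENSMUSG00000023992, chr17:48346401-48354147 on GRCm38) had 1610.3 and 1744 CPM without inhibitors and 1596 and 1485 CPM with inhibitors. Both animals without inhibitors were above both others, with a log2 fold change of 0.12 (SE 0.09, edgeR adjusted p = 0.930). Tyrobp (ENSMUSG00000030579, chr7:30413760-30417585), whose tyrosine motif carries the signal of Trem2 into the cell, had 3833 and 3853 CPM without and 3719 and 3517 CPM with inhibitors. Its log2 fold change was 0.09 (SE 0.09, edgeR adjusted p = 0.977), again with both animals without inhibitors above both others. Apoe (ENSMUSG00000002985, chr7:19696109-19699188), the lipoprotein that Trem2 can bind, had 1134 and 1302 CPM without and 1148 and 1187 CPM with inhibitors. The groups overlapped, with a log2 fold change of 0.06 (SE 0.09, edgeR adjusted p = 0.983). Cd9 (ENSMUSG00000030342, chr6:125460266-125494791), a tetraspanin of the cell surface, had 656 and 699 CPM without and 563 and 539 CPM with inhibitors. Here the groups did not overlap, and the log2 fold change of 0.30 (SE 0.10, edgeR adjusted p = 0.266) was under the fold threshold.

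The early activation genes differed far more between the groups in the same cells. Junb, a partner of Fos in AP-1, had 1441 and 1145 CPM without and 246 and 214 CPM with inhibitors, a log2 fold change of 2.49 (SE 0.11, edgeR adjusted p = 1.59e-33). Zfp36, which speeds the decay of inflammatory messages, rose by 2.88 (SE 0.14, adjusted p = 2.65e-25), and the heat shock gene Hspa1a by 5.94 (SE 0.26, adjusted p = 8.55e-19). Fos had 809.7 and 431 CPM against 3.79 and 2.42 CPM, and its log2 fold change of 7.61 (SE 0.93) was not called by edgeR (adjusted p = 0.502) but was by DESeq2 (adjusted p = 6.99e-35). Of a consensus list of 25 activation genes from sorted microglia of other animals, 24 were tested. All 24 had a positive log2 fold change, and edgeR called 16 as higher.

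**Figure D1:**
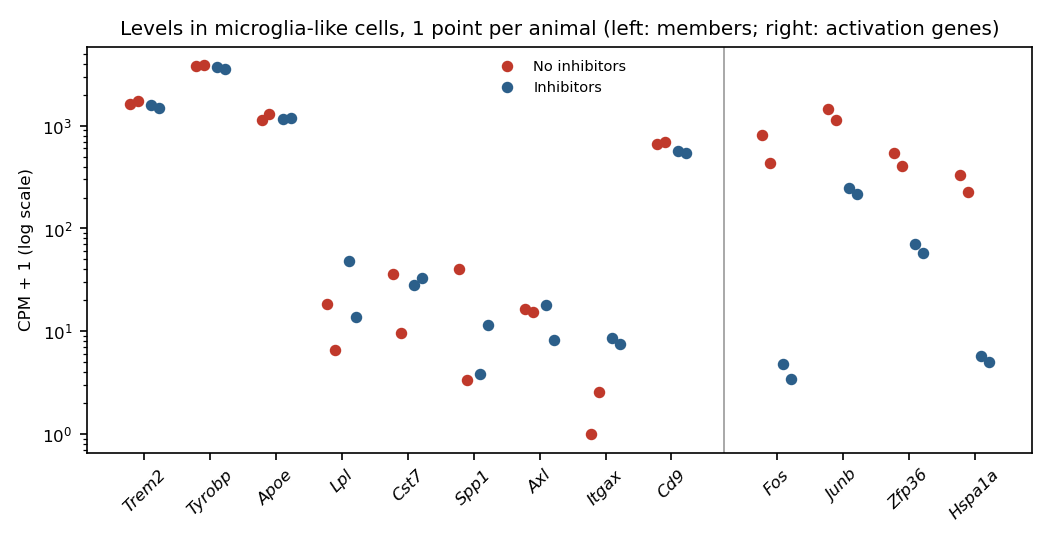
Levels of the 9 measured members (left) and of 4 activation genes (right) in microglia-like cells, as CPM + 1 on a log axis, with 1 point per animal in red (no inhibitors) or blue (inhibitors). The points of Trem2, Tyrobp and Apoe lie together between 1134 and 3853 CPM, while those of Junb run from 214 to 1441 CPM with the groups apart.

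Each of the other 5 members rested on few molecules and a handful of cells. Lpl (ENSMUSG00000015568, chr8:68880491-68907448), the lipase that frees fatty acids from lipoproteins, had 19 and 7 UMIs without inhibitors and 50 and 16 UMIs with inhibitors, or 17.4, 5.55, 47.4 and 12.9 CPM in the same order. The groups overlapped, and the log2 fold change of -1.38 (SE 1.10, edgeR adjusted p = 0.966) came with 46 of the 50 UMIs of the first inhibitor animal in 2 cells, which held 27 and 19. Without these 2 cells that animal had 4 UMIs. With doublets kept, Lpl was called as lower without inhibitors (-1.81). Cst7 (ENSMUSG00000068129, chr2:150570415-150578944), an inhibitor of lysosomal cathepsins, had 34.7 and 8.72 CPM without and 27.5 and 32.3 CPM with inhibitors, and its log2 fold change was -0.53 (SE 0.49, edgeR adjusted p = 0.966). Only the second animal without inhibitors was low for it, with 11 UMIs in 11 cells against 29 to 40 UMIs in the others.

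Spp1 (ENSMUSG00000029304, chr5:104435118-104441050), the secreted glycoprotein osteopontin, had 43 and 3 UMIs without and 3 and 13 UMIs with inhibitors. A single cell held 40 of the 43 and another 12 of the 13, so 1 animal of each group was high, and the log2 fold change of 1.49 (SE 1.84, edgeR adjusted p = 0.983) was below its error. Axl (ENSMUSG00000002602, chr7:25757273-25788705), a receptor for the phosphatidylserine bridging protein Gas6, had 15.5 and 14.3 CPM without and 17.1 and 7.27 CPM with inhibitors, with a log2 fold change of 0.33 (SE 0.39, edgeR adjusted p = 0.983). Itgax (ENSMUSG00000030789, chr7:128129547-128150657), the integrin chain CD11c, had 0 and 2 UMIs without and 8 and 8 UMIs with inhibitors. Both animals with inhibitors were the higher ones, but it stayed under the filter on low counts and was not tested. Its 0 cells of 728 allow a share of up to 0.412% of cells with a UMI, counting 0 as up to 3 cells.

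The shares of cells that held a member were compared at 1 depth. With every cell thinned to 1000 UMIs, a UMI of Trem2 was found in 74.4% and 79.97% of microglia-like cells without and 76.5% and 73.8% with inhibitors, and of Tyrobp in 95.7% to 96.6% in all 4 animals. For Apoe the shares were 45.2% and 55.9% without and 44.2% and 44.0% with inhibitors, and for Cd9 42.4% and 45.2% against 36.5% and 37.7%. For both genes the shares did not overlap between the groups, whereas the CPM of Apoe did. The other 5 members were found in at most 2.62% of cells in any animal. Astrocyte-like cells, of like depth (medians of 1389 to 1634 UMIs against 1271 to 1467.5), gave the background: 1.76% to 4.20% had a UMI of Trem2, 0% to 0.252% one of Cst7, and 0% one of Itgax. The shares for Spp1 in microglia-like cells, 0.134% to 0.613%, overlapped with those in endothelial-like cells (0% to 0.909%). The endothelial-like cells had 2 and 8 UMIs of Spp1 without and 0 and 0 with inhibitors. Whether the Spp1 counts outside the rich cells above are background was not tested. Unthinned, the shares with a UMI of Lpl were 1.92% (exact binomial 95% interval 1.06 to 3.21) and 0.798% (0.322 to 1.64) without inhibitors and 0.853% (0.314 to 1.85) and 1.05% (0.504 to 1.92) with inhibitors. These intervals cover counting error only.

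**Figure D2:**
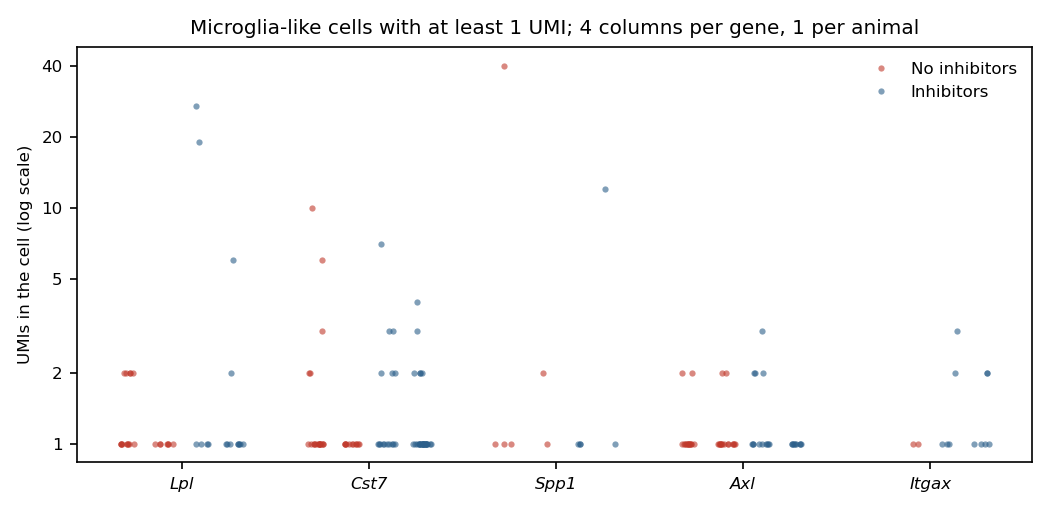
UMIs of 5 low members in each microglia-like cell that held at least 1, on a log axis, with 4 columns of points per gene for the 4 animals (red, no inhibitors; blue, inhibitors). Most cells held 1 or 2 UMIs, and 4 cells held 10 or more: 1 with 40 UMIs of Spp1 and 10 of Cst7, 1 with 12 of Spp1, and 2 with 27 and 19 of Lpl.

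Cells with several of these 5 genes at once were rare in both groups. At 1000 UMIs per cell, 2 of 653 and 0 of 744 microglia-like cells without inhibitors had a UMI of 2 or more of them, against 2 of 613 and 4 of 764 with inhibitors. In all their UMIs, the counts were 5 of 728 and 0 of 877 against 5 of 703 and 13 of 954. The cells with the most were found in either group. The cell with 40 UMIs of Spp1 also had 10 of Cst7 and 62 of Tyrobp, 170 UMIs of homeostatic genes and 0 of the macrophage and dendritic markers. In the inhibitor group, the cell with 27 UMIs of Lpl had 12 of Cd9, 10 of Apoe, 1 of Trem2 and 9 of 4 MHC class II genes, and 68 UMIs of homeostatic genes. The cell with 19 UMIs of Lpl had 69 of Apoe, 22 of Cd9, 7 of Cst7, 3 of Itgax and 10 of 4 MHC class II genes, again with 0 of those markers. It held 202 UMIs of homeostatic genes, against a median of 121 in its library. The cell with 12 UMIs of Spp1, in the second inhibitor animal, had 21 of Apoe, 12 of Tyrobp and 3 of Trem2. It held 58 UMIs of homeostatic genes, against a median of 93 in its library, and 0 of those markers. Of the 4 cells, 3 lay in 1 cluster of the class, which held 537 cells and was led by the chemokine genes Ccl4, Ccl12 and Ccl3. Of these, Ccl4 and Ccl3 are on the consensus list of activation genes. So are Atf3, Fos and Junb, also among the 10 leading genes of the cluster.

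Apoe was uneven from cell to cell. The median microglia-like cell held 1 UMI in every library and between 283 and 459 cells per library held 0. Between 15 and 19 cells per library held 10 or more, up to 203 in 1 cell. They made up 1.99% to 2.61% of the cells and 24.3% to 41.4% of the Apoe UMIs of the class. The 18 homeostatic genes had medians of 83 to 136 UMIs in these cells, against 93 to 121.5 over the class, and at most 1 per library held 2 or more UMIs of macrophage or dendritic markers. Left out, the class had 755 and 1005 CPM of Apoe without and 746 and 719.6 CPM with inhibitors, so that the second animal without inhibitors was the high one.

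The class was made of 3 clusters, which differed in the members (as a description, since clusters are not tested against each other). The cluster led by Ccl4, Ccl12 and Ccl3 had 1377 to 2389 CPM of Apoe over the animals and 804 to 1046 CPM of Cd9. The largest cluster, with 1995 cells, had 704 to 886 and 476 to 583 CPM of these. The remaining cluster, with 730 cells, had 1783 to 2356 and 497 to 711 CPM. Its Apoe thus overlapped with that of the cluster led by Ccl4, Ccl12 and Ccl3. Trem2 lay between 1371 and 1969 CPM and Tyrobp between 3371 and 4719 CPM in all clusters and animals. The chemokine-led cluster was found in both groups, at 17.9% and 20.2% of the class without and 14.9% and 13.1% with inhibitors. Of the class's 92 Lpl UMIs, 71 were in it, 46 of them in the 2 rich cells of 1 animal, and of 18 Itgax UMIs, 10.

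Over all kept cells the members were also not called. By edgeR 0 of 8 tested passed, against 0.029% of 13785 genes called, with 2 members at an unadjusted p under 0.05, and DESeq2 called 0 with 0 at that p. Spp1 had 25.1 and 27.1 CPM without and 19.0 and 17.8 CPM with inhibitors, a log2 fold change of 0.51 (SE 0.15, edgeR adjusted p = 0.605). For Cd9 the values were 398 and 409.8 against 341 and 343 CPM, with a log2 fold change of 0.24 (SE 0.09, edgeR adjusted p = 0.697). In both genes the groups did not overlap. In such sums a change in the mix of classes and a change within them cannot be told apart.

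Where the molecules of each member lay set it apart from the rest. Trem2 and Tyrobp were microglial: 95.01% and 89.97% of their UMIs over all kept cells were in microglia-like cells. Trem2 had 1492 to 1727 CPM there, above macrophage/monocyte-like cells (157 to 403) in every animal, and Tyrobp 3534 to 3815 CPM against 2716 to 3173. The other tested classes had at most 47.4 CPM of Trem2 and 237 CPM of Tyrobp. For each 100 UMIs of microglial markers there were 5.97 to 6.03 UMIs of Trem2 in microglia-like, 5.77 to 8.37 in astrocyte-like and 7.14 to 9.16 in endothelial-like cells, with wider ranges in classes of fewer marker UMIs, such as 2.25 to 11.1 in neuron-like cells. For Tyrobp the ratio was 13.2 to 14.2 in microglia-like, 23.0 to 27.4 in astrocyte-like and 24.7 to 27.8 in endothelial-like cells.

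Apoe had its highest levels in olfactory ensheathing-like cells (26999 and 36916 CPM in the 2 animals with at least 20 such cells). These were the first animals of the groups (29 and 32 cells), and both second animals had 0. Next were macrophage/monocyte-like (12570.0 to 16063 CPM) and astrocyte-like cells (13332 to 14658 CPM), which overlapped. Ependymal-like cells followed with 4815 to 6307 CPM. Microglia-like cells were far down this order at 1121 to 1289 CPM, not separated from endothelial-like, oligodendrocyte-like, mural-like or neuron-like cells, and held 6.83% of all Apoe UMIs. For each 100 UMIs of astrocyte markers there were 54.3 to 66.0 UMIs of Apoe in astrocyte-like cells and 129 to 144 in microglia-like cells, below the 194 to 229 in endothelial-like and 223 to 289 in oligodendrocyte-like cells.

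Within macrophage/monocyte-like cells, a cluster of 67 cells led by Pf4 and Mrc1, genes of macrophages at brain borders, had 24599.5 to 35197 CPM of Apoe and 330 to 775 CPM of Trem2. A cluster of 97 cells led by the MHC class II genes H2-Aa, Cd74 and H2-Eb1, with the lymphocyte genes Igkc and Nkg7 also among its 10 leading genes, had 5183 to 8569 CPM of Apoe and 87.6 to 222 CPM of Trem2. The Itgax (7), Cst7 (10), Lpl (4) and Spp1 (4) UMIs of the class were all in the second.

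Spp1 and Axl were mostly outside microglia. Fibroblast-like cells had 332 to 426 CPM of Spp1 in the 3 animals with at least 20 such cells, and 1 cluster of 34 cells, led by Dcn and Spp1, between 1122 and 4194 CPM. Microglia-like cells held 13.4% of the Spp1 UMIs. Axl was highest in mural-like (172 to 283 CPM), macrophage/monocyte-like (80.6 to 209) and astrocyte-like cells (80.5 to 113), which overlapped, and microglia-like cells held 9.02% of its UMIs at 7.30 to 17.4 CPM. Cst7 was the reverse, with 118 of its 131 UMIs in microglia-like cells and 10 in macrophage/monocyte-like cells. Itgax was counted in these 2 classes alone, with 18 and 7 UMIs. Lpl had 92 of its 137 UMIs in microglia-like cells, 27 and 19 of them in 2 cells of the first inhibitor animal. Its levels in microglia-like cells (5.50 to 48.2 CPM) overlapped with those in mural-like (12.9 to 31.3 CPM, on 5 UMIs) and neuron-like cells (5.40 to 37.1 CPM, on 10 UMIs). Cd9 was widespread. It was highest in oligodendrocyte precursor-like cells (2230.2 CPM in the 1 animal with at least 20 of them), followed by fibroblast-like cells (976 to 1119 CPM). Microglia-like cells, at 541 to 692 CPM, overlapped with ependymal-like and oligodendrocyte-like cells, and neuron-like cells had 18.5 to 85.3 CPM.

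**Figure D3:**
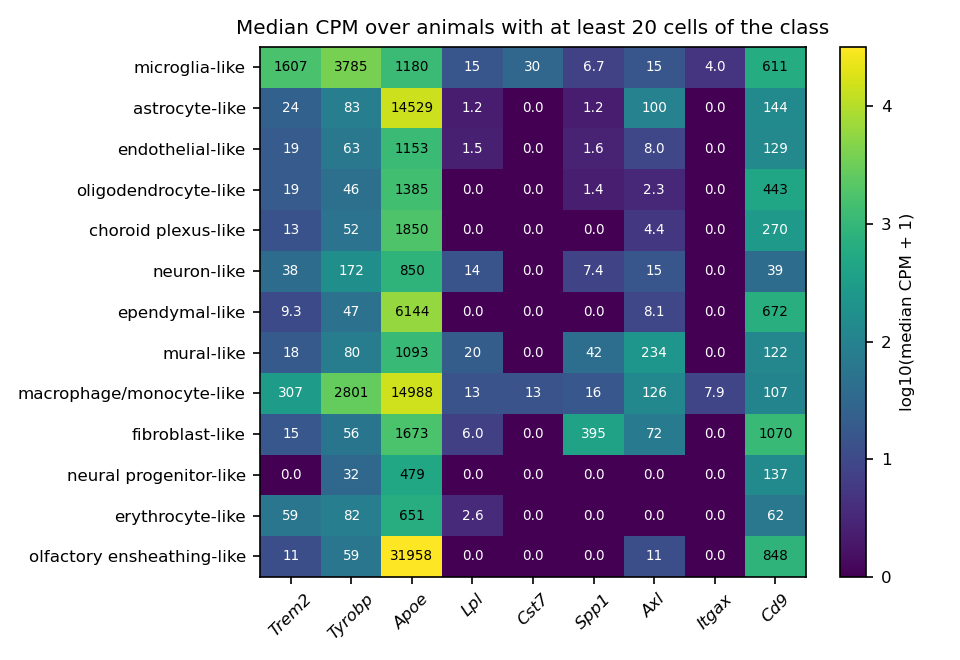
Median CPM of the 9 members (columns) over the animals with at least 20 cells of a class (rows), with colour on a log10 scale. Trem2 and Tyrobp are bright in the microglia-like and macrophage/monocyte-like rows (1607 and 307 CPM for Trem2), Apoe in the olfactory ensheathing-like, macrophage/monocyte-like and astrocyte-like rows, and Cst7 and Itgax are near 0 elsewhere.

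The genes whose levels most followed a member over the 36 class-by-animal sums were, for Trem2, C1qa (Pearson r 0.965), C1qc (0.956) and Ctss (0.952), and for Tyrobp, C1qa (0.983), Fcer1g (0.981) and C1qc (0.975). C1qa and C1qc encode chains of complement C1q and Fcer1g another adaptor of the same kind. Apoe followed no gene as closely, the highest being Sdc4 (0.788), Sh3pxd2b (0.784) and S100a6 (0.754), and the same held for Cd9 with Cd82 (0.753), Yif1a (0.738) and Vps72 (0.719). For Axl they were Slc1a5 (0.816), Emp3 (0.771) and Sdc3 (0.718). For Lpl, Cst7, Spp1 and Itgax, with mean levels of 2.61 to 16.5 CPM, the highest were Mef2c (0.830), Bcl2a1a (0.933), Filip1l (0.811) and Gzma (0.847). Sums of 1 animal share a library and sums of 1 class share cells, so these are descriptions.

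Outside microglia-like cells, 2 of 26 member tests in the other 8 classes were called, both in choroid plexus-like cells, the epithelium that makes cerebrospinal fluid. In those cells edgeR called 4.43% of 4605 genes, the highest background of any class. Cd9 had 412 and 338 CPM without inhibitors and 137 and 187 CPM with inhibitors, a log2 fold change of 1.24 (SE 0.18, edgeR adjusted p = 4.53e-05). Apoe had 2386 and 2200.3 CPM against 1480.0 and 1536 CPM, a log2 fold change of 0.60 (SE 0.09, edgeR adjusted p = 5.52e-05), just over the fold threshold. Both genes were higher in both animals without inhibitors, and DESeq2 called the same 2.

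Several measures of this class moved with the group, and their part in these values was not tested. Median UMIs per cell were 2714 and 2378.5 without and 1923.5 and 1340.5 with inhibitors, and Ttr, the main product of these cells, took 34.9% and 26.3% against 21.5% and 20.4% of the UMIs. The 9 oligodendrocyte markers summed to 3.63 and 3.73 against 6.54 and 10.9 of every 10000 UMIs, and the 6 erythrocyte markers to 3.72 and 5.24 against 1.58 and 2.603. Astrocyte markers, whose cells are rich in Apoe, did not separate the groups (4.83 and 4.81 against 3.98 and 6.04). When libraries were scaled by their totals alone, the median log2 fold change of all genes in the class moved from -0.01 to -0.19 and the calls from 171 higher and 33 lower to 80 higher and 132 lower. Under that scaling Cd9 was still called at 1.05, while Apoe at 0.41 was not. In the larger of the 2 clusters of the class alone (583 cells), the log2 fold changes were 1.19 for Cd9 and 0.70 for Apoe, both called, an alternative added after the data were seen. The smaller cluster, with a median of 12098 UMIs per cell, had 10 and 18 cells without and 3 and 3 with inhibitors. There the groups overlapped for Apoe (2243 and 1680 against 2105 and 1939 CPM) but not for Cd9 (523 and 481 against 306 and 329 CPM). At 1000 UMIs per cell, Cd9 was found in 28.0% and 27.0% against 13.1% and 25.0% of the cells and Apoe in 74.2% and 83.4% against 74.6% and 71.6%, so the shares for Apoe overlapped.

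The other 7 classes had 0 members called by edgeR or DESeq2. The backgrounds were 0.0493% of genes in astrocyte-like, 0.0361% in endothelial-like, 0.184% in oligodendrocyte-like, 0.0294% in neuron-like, 0% in ependymal-like (151 of 4014 genes at an unadjusted edgeR p under 0.05, and 0 called by DESeq2), 0.211% in mural-like and 0.414% in macrophage/monocyte-like cells. At an unadjusted edgeR p under 0.05 there were 2 members each in endothelial-like and oligodendrocyte-like cells, 1 in mural-like cells and 0 in the other 4 classes. In endothelial-like cells Apoe had 1238 and 1706 CPM without and 1040.1 and 1038 CPM with inhibitors (log2 fold change 0.51, SE 0.11, edgeR adjusted p = 0.197). Cd9 had 146 and 185 against 103 and 112 CPM there (log2 fold change 0.64, SE 0.15, edgeR adjusted p = 0.197). In mural-like cells Apoe had 2424 and 1211 against 746 and 1012 CPM (log2 fold change 1.01, SE 0.25, edgeR adjusted p = 0.0825), a result that rests on 49 to 119 UMIs per animal. It was called with RLE size factors (1.02, edgeR adjusted p = 0.0459) and with no filter on low counts (1.02, edgeR adjusted p = 0.0216). Markers of other cells moved with the group in both classes, and their part was not tested. The 10 astrocyte markers summed to 52.7 and 46.8 against 38.3 and 35.2 of every 10000 UMIs in mural-like cells and to 5.54 and 7.29 against 4.74 and 5.34 in endothelial-like cells. In endothelial-like cells the 6 erythrocyte markers summed to 6.58 and 15.3 against 1.26 and 4.81, and the 8 mural markers to 4.24 and 4.75 against 3.25 and 3.94. Cd9 had a positive log2 fold change in each of the 6 classes in which it was tested, microglia-like cells included. These classes are sums from the same 4 animals, so the 6 values are not independent, and the share of all genes with 1 sign in every class was not counted.

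**Figure D4:**
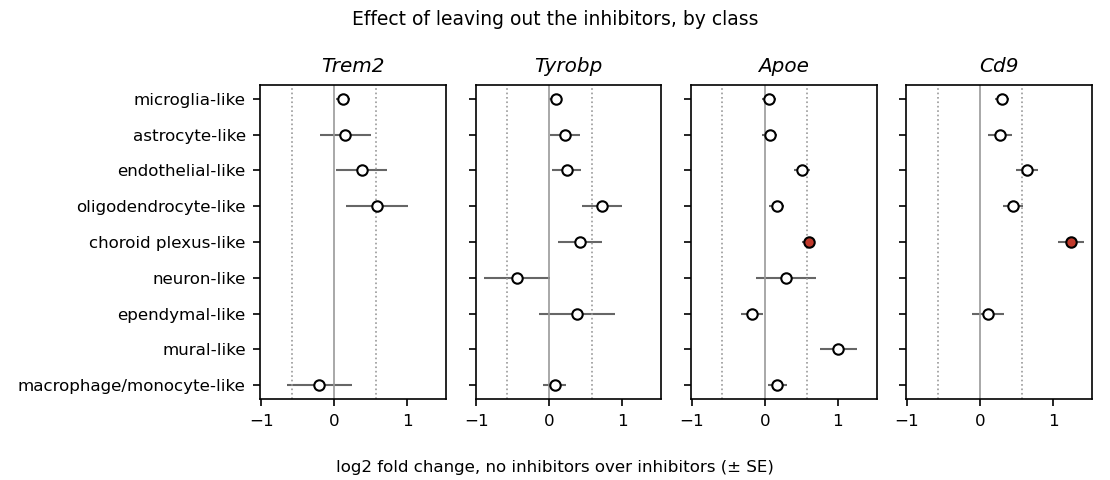
Log2 fold changes (no inhibitors over inhibitors, bars show the SE of the edgeR fit) of Trem2, Tyrobp, Apoe and Cd9 in the 9 tested classes, with dotted lines at 0.58 and -0.58 and filled points for called genes. The filled points are Apoe (0.60) and Cd9 (1.24) in choroid plexus-like cells, and the microglia-like points lie between 0.06 and 0.30.

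Macrophage/monocyte-like cells had 33 to 46 cells per animal and were a mixed class. The 5 neutrophil markers summed to 68.2 and 102.4 of every 10000 UMIs without and 0.158 and 123.7 with inhibitors. Their part in the values below was not tested. Apoe had 14965 and 16398 CPM without and 12591 and 14662 CPM with inhibitors, with a log2 fold change of 0.17 (SE 0.13, edgeR adjusted p = 0.954), and both animals without inhibitors were the higher ones. Within each of its 2 clusters the groups overlapped, with 31960 and 34869 against 35197 and 24599.5 CPM in the cluster led by Pf4 and 5183 and 8569 against 6271 and 7707 CPM in the other. The 10 macrophage/monocyte markers summed to 58.6 and 43.6 against 28.2 and 38.3 of every 10000 UMIs, and their part in the result was not tested. Tyrobp had 2709 and 3239 against 2796 and 2757 CPM and Trem2 389 and 159.8 against 300.2 and 319 CPM, both with overlapping groups. The only 4 genes called by edgeR among 966 in these cells were the activation genes Dusp1, Fos, Jun and Zfp36, and all 4 rose.

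The effects in microglia-like cells were then set against those in each other class by edgeR interaction tests with the animal as a block, 53 tests of members over 8 classes. Only Cd9 against choroid plexus-like cells was called, with an effect smaller in microglia-like cells by -0.95 on the log2 scale (SE 0.21, edgeR adjusted p = 0.0028). For Apoe the effect in microglia-like cells was lower than in endothelial-like cells by -0.44 (SE 0.11, edgeR adjusted p = 0.0353) and than in choroid plexus-like cells by -0.55 (SE 0.15, edgeR adjusted p = 0.0353). Both passed the adjusted p but not the fold threshold. The shares of all genes called in these tests were 0.174% against astrocyte-like, 0.353% against endothelial-like, 0.27% against oligodendrocyte-like, 0.762% against choroid plexus-like, 0.0692% against neuron-like, 0.0732% against ependymal-like, 0.0364% against mural-like and 0.0404% against macrophage/monocyte-like cells. Trem2 and Tyrobp passed in no test.

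The last comparison asked whether, without inhibitors, the microglia-like cells that carried the activation genes also carried more of the members. Cells were split by their summed UMIs of the 25 consensus activation genes at 1000 UMIs per cell, above or up to 7 UMIs, a limit set at the 99th percentile in the cells of the 2 inhibitor animals. This gave 256 activated and 397 other cells in the first animal and 216 and 528 in the second, with 235 and 316 cells within 4 UMIs of the limit. Median depths were 1595.5 and 1606 UMIs in activated and 1462 and 1455.5 in other cells. Since the split used activation genes, the 24 of them that were tested had to differ. Of all genes, edgeR with the animal as a block called 1.88% of 6313.

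Trem2, Apoe and Cd9 were higher in activated cells of both animals, by less than the fold threshold in edgeR, and the states differed in their clusters. The chemokine-led cluster held 76 of 256 and 77 of 216 activated cells against 44 of 397 and 72 of 528 others. Its leading genes Ccl4, Ccl3, Atf3, Fos and Junb are on the list that split the cells, so these counts partly follow from the split. Cd9 had 799 and 769 CPM in activated and 519.6 and 591 CPM in other cells, a log2 difference of 0.55 (SE 0.09, edgeR adjusted p = 1.30e-06). Apoe had 1203 and 1467 against 975 and 1159.7 CPM (log2 difference 0.37, SE 0.08, edgeR adjusted p = 3.06e-04). Trem2 had 1811 and 1818 against 1386 and 1572 CPM (log2 difference 0.35, SE 0.07, edgeR adjusted p = 3.94e-04). Tyrobp, the partner of Trem2, had 3679 and 3463 against 3804 and 3936 CPM, with a log2 difference of -0.07 (SE 0.07, edgeR adjusted p = 0.778). DESeq2 gave nearly the same differences with larger errors and passed none of these 3 genes: 0.54 for Cd9 (SE 0.19, DESeq2 adjusted p = 0.306), 0.36 for Apoe (SE 0.14, DESeq2 adjusted p = 0.707) and 0.34 for Trem2 (SE 0.13, DESeq2 adjusted p = 0.544). All 3 had an unadjusted DESeq2 p under 0.05. With the cells up to 4 UMIs below the limit left out, Apoe at 0.31 no longer passed in edgeR (adjusted p = 0.104), while Cd9 and Trem2 did.

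Within clusters, an alternative added after the data were seen and given as values with no test, Cd9 was higher in activated cells in all 3 clusters of both animals. In the largest cluster it had 725 and 661 CPM in activated against 473 and 549 CPM in other cells, and in the chemokine-led cluster 959 and 952 against 809 and 844 CPM. In the remaining cluster it had 707 and 581 against 546 and 561 CPM. The activated cells there, 9 and 20, held 8 and 14 of its UMIs. Trem2 had 1782 and 1790.4 against 1299.9 and 1509 CPM in the largest cluster and 1896 and 1777 against 1794 and 1744 CPM in the chemokine-led one. In the remaining cluster Trem2 had 1503 and 2282 against 1544 and 1716 CPM, so the animals went opposite ways. Apoe had 865 and 807 against 654 and 901 CPM in the largest cluster, so the 2 animals went opposite ways there, and 1852 and 2288 against 1338 and 1992 CPM in the chemokine-led one. In the remaining cluster Apoe had 1768 and 2033 against 2623 and 1640 CPM, again opposite ways.

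Cst7 was the 1 of 6 tested members past both thresholds, with 24 and 7 UMIs in activated and 14 and 4 UMIs in other cells, or 55.1 and 19.2 against 23.1 and 5.03 CPM (log2 difference 1.46, SE 0.44, edgeR adjusted p = 0.047). It was in 10 and 7 activated against 10 and 4 other cells, and 1 cell held 10 of its UMIs. At 500 UMIs per cell its log2 difference was 0.12 (SE 0.47, edgeR adjusted p = 0.968), and DESeq2 gave it no adjusted p. Axl had 23.0 and 24.6 against 9.90 and 10.1 CPM (log2 difference 1.29, SE 0.57, edgeR adjusted p = 0.327). Lpl, Spp1 and Itgax were under the filter, and 40 of the 41 Spp1 UMIs of activated cells in the first animal were the single cell described above. That cell held 8 activation UMIs, just over the limit of 7. Of the rich cells in the inhibitor animals, the one with 12 UMIs of Spp1 held 73 activation UMIs. Those with 27 and 19 UMIs of Lpl held 30 and 2. In these animals 6 of 613 and 4 of 764 microglia-like cells were above the limit.

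**Figure D5:**
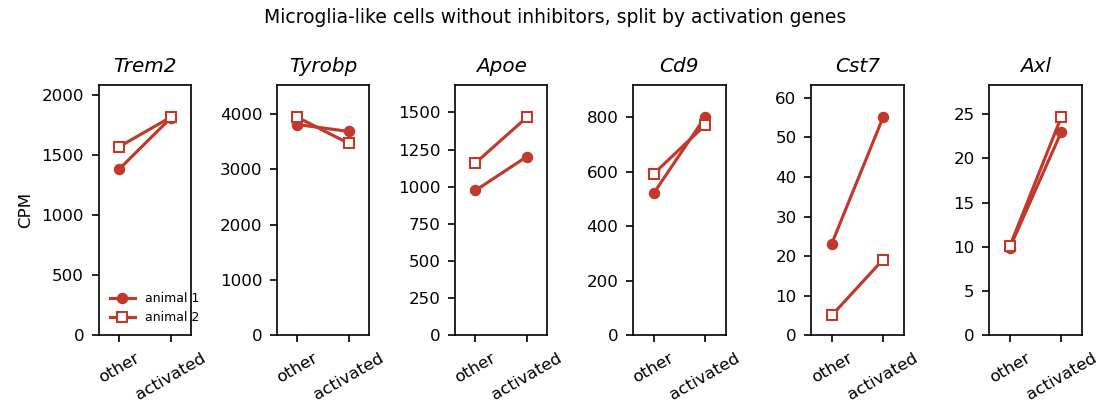
CPM of 6 members in other and activated microglia-like cells of the 2 animals without inhibitors (filled circles, first animal; open squares, second), with lines joining the values of 1 animal and axes starting at 0. Cd9 goes from 519.6 and 591 up to 799 and 769 CPM, while Tyrobp stays between 3463 and 3936 CPM.

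Genes around the members were examined as lists. Of 26 further disease-associated genes, among them lysosomal and lipid genes, 22 were tested in microglia-like cells and 0 were called by edgeR or DESeq2, with 6 at an unadjusted edgeR p under 0.05 and log2 fold changes between -0.51 and 0.44. Of 18 homeostatic genes, 18 were tested and 0 called by either tool, with 3 at that unadjusted p and fold changes between -0.10 and 0.30. Of 13 genes that signal below Trem2, such as Syk and Plcg2, 13 were tested and 0 called by either tool, with 1 at that unadjusted p. Of 26 ligands, receptors and binding partners of the members, such as Gas6 and Cd44, 18 were tested and 0 called by either tool, with 2 at that unadjusted p. Over all genes, 557 of 8770 were at that unadjusted p. The medians of these lists were 0.07, 0.06, -0.02 and 0.00, beside 2e-04 for all genes.

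Between activated and other cells the same 4 lists had 0 of 19, 0 of 18, 0 of 13 and 2 of 16 genes called, with 9, 8, 2 and 4 at an unadjusted edgeR p under 0.05, beside 1.88% called and 730 of 6313 genes at that p over all genes. The 2 called were Cd81, a tetraspanin that pairs with Cd9 in the membrane, and Ctsc, a lysosomal protease that cystatin F, the product of Cst7, inhibits. Cd81 had 3259 and 3635 against 2206 and 2537 CPM (log2 difference 0.59, SE 0.07, edgeR adjusted p = 5.06e-13), and Ctsc 289 and 353 against 188 and 250.3 CPM (log2 difference 0.60, SE 0.13, edgeR adjusted p = 3.24e-04). In macrophage/monocyte-like cells the lists had 14, 9, 4 and 6 genes tested and 0 called by either tool, with 2, 0, 0 and 0 at an unadjusted edgeR p under 0.05.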

How the data were processed

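The authors deposited raw UMI counts per gene and cell barcode for 4 libraries (10x Genomics 3′ version 2 chemistry), made with Cell Ranger 3.0.0 on mm10 per the labels and methods. Counts tag 3′ ends, so no length scaling was applied. The deposited barcodes had at least 500 UMIs, and 134 of them also occurred in another library.

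Cells with at least 400 genes and at most 20% mitochondrial UMIs were kept (10067), and 206 were removed as doublets by a score against 2 simulated doublets per cell with 20 neighbours, at 0.8% per 1000 cells. Clustering used 2000 variable genes, 30 principal components, 15 neighbours and Leiden resolution 1 (leidenalg 0.10.2, scikit-learn 1.9.0, Python 3.11.15). A class name needed 3 markers with a log2 fold of at least 1 and detection in 10% of cells, and a cluster with more markers of another type than its own among its top 10 genes stayed unnamed.

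Sums of counts per animal and class were compared in R 4.3.3 by the robust quasi-likelihood F test of edgeR 4.0.16 with group as the only term, after filterByExpr and TMM scaling, and adjusted by Benjamini-Hochberg over all genes tested. SE is the absolute log2 fold change over the root of F. DESeq2 1.42.0 was an alternative. The scripts were tested on simulated data. CPM within a class used TMM factors. Totals alone were used for CPM across classes, in clusters, in activated and other cells, and for Apoe with its rich cells left out. The edgeR log2 differences between activated and other cells did use TMM factors, so they need not match those CPM exactly. Each library was 1 animal, and replicates of a group differed by more than sampling noise (chi-square per degree of freedom 6.07 without and 4.89 with inhibitors). With 2 animals against 2 an exact permutation test cannot go below p = 0.333 and was not used. Groups of a gene with no difference would be without overlap at that same rate, so a lack of overlap is a description. Positions are from GENCODE M21 (GRCm38).

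The members, lists and tests were chosen with earlier results of these data known. Named genes were all members, 4 activation genes, up to 3 called genes per list and comparison, and the 3 genes most like each member among those with a mean of at least 10 CPM. Rich cells, clusters and their leading genes were named after their values were seen.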

Additional observations from a re-analysis of the deposited data

Results flagged for a closer look

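The effect of leaving out the inhibitors differed between classes at an adjusted p under 0.05 for 2 members in the interaction tests in edgeR, of which Cd9 alone also passed the fold threshold. The effect on Cd9 was lower in microglia-like than in choroid plexus-like cells by -0.95 on the log2 scale. The effect on Apoe was lower in microglia-like than in endothelial-like cells by -0.44 and than in choroid plexus-like cells by -0.55, both under that threshold. With library totals alone as scaling, 0 of the 53 member tests passed both thresholds, and with the stricter cell filter 2 did, Cd9 and Apoe against choroid plexus-like cells. Depth per cell, the share of Ttr and oligodendrocyte and erythrocyte markers also differed between the groups in choroid plexus-like cells. So did the number of cells in the smaller cluster of that class, and the part of these differences was not tested.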

How the results depend on the processing

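In microglia-like cells Lpl, Cst7, Spp1, Axl and Itgax had at most 50 UMIs per animal. In all cells 0 members were called under each of the 8 alternatives that kept all animals and with any 1 animal left out (0 to 0). In microglia-like cells the count of 0 became 1 with the replicate block and 1 with no removal of doublets, in each case Lpl (-1.38 and -1.81), and 0 to 2 with 1 animal left out. The members called then were Lpl and Cst7 (-2.36 and -1.77) without the first animal without inhibitors, Spp1 (2.47) without the second, and Lpl (-2.09) without the second inhibitor animal. Leaving out 1 animal moved the log2 fold change of Trem2 between 0.06 and 0.18, of Tyrobp between 0.04 and 0.13, of Apoe between -0.046 and 0.16, of Cd9 between 0.25 and 0.34, of Lpl between -2.36 and -0.22, of Cst7 between -1.77 and 0.20, of Spp1 between -1.50 and 2.75 and of Axl between -0.20 and 1.02.

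In other classes the 2 calls became 1 with library totals alone, 3 with RLE size factors and 3 with no filter (Apoe in mural-like cells added by each), 4 with the replicate block (Cd9 in endothelial-like and Apoe in mural-like cells added) and 1 to 5 with 1 animal left out. Without the first animal without inhibitors, the 5 were Cd9 in choroid plexus-like (1.13), endothelial-like (0.77) and oligodendrocyte-like cells (0.61), Apoe in endothelial-like cells (0.71) and Spp1 in mural-like cells (2.85). Without the second, Cd9 (2.01) and Apoe (1.47) in mural-like cells were added. Without the second inhibitor animal, Cd9 in oligodendrocyte-like (0.77) and Apoe in mural-like cells (1.22) were added, and without the first, Apoe in choroid plexus-like cells (0.58) was lost. In choroid plexus-like cells the log2 fold change of Apoe then ran from 0.56 to 0.68 and that of Cd9 from 0.99 to 1.42. Over all genes, same-numbered animals hardly deviated together (r 0.07 over the sums of all cells, 0.03 over those of microglia-like cells), and the numbers were not taken as pairs. Olfactory ensheathing-like cells did go with the number, with 29 and 32 in the first animals of the groups and 0 in both second animals. Whether the numbers mark a shared step is not given in the labels. In macrophage/monocyte-like cells Tyrobp turned to -0.10 with the stricter cell filter and -0.083 with all variable genes in clustering, where Apoe turned to -0.10. With 1 animal left out Trem2 there ran from -0.98 to 0.35, Tyrobp from -0.015 to 0.19 and Apoe from 0.06 to 0.30.

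The interaction tests called 0 members with library totals alone and 2 with the stricter cell filter, alternatives added after the data were seen. Between activated and other cells, 0 members were called with the 95th percentile, with 500 UMIs per cell and with the cells up to 4 UMIs below the limit left out. DESeq2 gave Cst7 no adjusted p, and without the filter the 1 call was Spp1 (4.12), with Cst7 at 1.403. All genes called over all cells numbered 4 by edgeR, 37 by DESeq2, 138 higher and 30 lower with no filter, and 41 with the block. With 1 animal the split has no residual degrees of freedom and was not refitted. The cause of these changes was not tested.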
